A study of Mus musculus with 6 samples.

Results

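The genes described here encode the constitutive proteasome and the factors named after it. Members were chosen by symbol: every non-control probe whose gene symbol begins with *Psma*, *Psmb*, *Psmc* or *Psmd* followed by a number, leaving out the immunoproteasome subunits *Psmb8*, *Psmb9* and *Psmb10*. The rule matched 36 genes of the reference gene table, of which 35 had a probe on the array, with 46 probes of 41174 non-control probes and 35 of 16358 named genes. None of the 6 arrays measured *Psmb11* well above background, which left 34 genes among the 12968 genes tested, and all 34 were well above background on all 6 arrays. The rule uses symbols only, though it was written with earlier results of these data known. Total RNA of whole lung from C57BL/6 mice was hybridised to 6 single-colour (Cy3) Agilent mouse arrays, with 2 arrays in each of 3 genotypes. The genotypes were hCD2-T-bet tg/tg and hCD2-T-bet tg/wt, which carry a transgene for the transcription factor T-bet (gene *Tbx21*) under human CD2 sequences that direct expression to T cells, and WT without the transgene. The labels give neither the age of the mice nor whether a genotype's arrays hold RNA of different animals. The spread that the p-values rest on is that between arrays and may be technical. Whole lung mixes many cell types, and a change in the share of a cell type and a change in RNA per cell cannot be told apart.

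The proteasome degrades proteins that carry ubiquitin chains. Its barrel-shaped 20S core is a stack of outer alpha rings and inner beta rings. The alpha rings gate the entry, and the beta subunits encoded by *Psmb5*, *Psmb6* and *Psmb7* cut the substrate. A 19S regulatory particle caps the core: the ATPases of its base, encoded by the *Psmc* genes, unfold the substrate and thread it into the core, and the lid removes ubiquitin chains before degradation. In cells exposed to interferon the 3 catalytic beta subunits can be replaced by the immunoproteasome subunits. In mammalian cells the constitutive genes can be raised together by the transcription factor Nfe2l1, which binds antioxidant response elements.

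Levels are given as log2 of the processed signal minus the array's 75th percentile of it, so a level of 1 is a signal at 2 times that percentile, and a probe's level is not comparable with that of another probe. Differences are on the same log2 scale and were tested with limma over all 12968 genes, with Benjamini-Hochberg adjusted p-values (adjusted p) and a threshold of 0.05. The 75th percentile lay between 794 and 1204 intensity units, and on each array 62.0% to 66.8% of the probes exceeded background clearly (the scanner software's own mark). *Tbx21* checked the labels: its level was 3.25 and 3.26 in tg/tg lungs and 1.30 and 1.34 in tg/wt lungs, against −0.70 and −0.71 in WT lungs. Slide 1 (scan 1) held the tg/tg and WT arrays, and slide 2 (scan 2) held those of tg/wt, so in both comparisons with tg/wt the slide and the genotype cannot be told apart. The lungs differed in cell markers as well. The summed linear level of 9 T cell markers was 43.8 to 44.6 in tg/tg, 8.17 to 8.20 in tg/wt and 3.63 to 3.84 in WT, and that of 9 markers of monocytes and interstitial macrophages was 244 to 251 in tg/tg, 28.9 to 29.4 in tg/wt and 19.9 to 20.4 in WT; in both lists all 9 markers were higher in tg/tg than in WT. Of 8 endothelial markers all 8 were lower in tg/tg than in WT, with sums of 62.8 to 63.7 in tg/tg, 136 to 138 in tg/wt and 148 to 150 in WT. The sum of 8 alveolar type 2 cell markers, which mark lung tissue, was 1194 to 1348 in tg/tg, 928 to 1091 in tg/wt and 1054 to 1114 in WT; of these markers 3 were higher and 2 lower in tg/tg than in WT, and the sum is carried by the brightest probes. All 8 heart muscle markers (sums of 13.5 to 13.8 in tg/tg, 113 to 114 in tg/wt and 230 to 234 in WT), all 5 fat markers (0.462 to 0.490 in tg/tg, 17.2 to 17.8 in tg/wt and 25.6 to 26.7 in WT) and all 5 airway epithelium markers (375 to 422 in tg/tg, 672 to 811 in tg/wt and 833 to 848 in WT) were lower in tg/tg than in WT. All 7 markers of proliferating cells were higher in tg/tg than in WT (8.21 to 8.22 in tg/tg, 3.31 to 3.32 in tg/wt and 2.02 to 2.06 in WT).

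In tg/tg lungs the constitutive proteasome genes were higher as a set of small differences in one direction. Of the 34 tested genes 30 were higher and 0 were lower in tg/tg than in WT (limma, adjusted p between 4.03e-05 and 0.0386; at an unadjusted p under 0.05 the counts were also 30 and 0). The differences that passed ran from 0.15 to 0.91, which is 1.11-fold to 1.88-fold. The background was large in this comparison: 33.8% of all tested genes passed as higher and 40.8% as lower. At an unadjusted p under 0.05, 4512 of all 12968 tested genes were higher and 5413 lower. The median difference of the 34 genes was 0.38 (1.30-fold), beside −0.05 over all tested genes, and 23.5% of all genes lay above the members' median. A log2 difference of at least 0.5 was reached by 10 of the 34 as a rise and by 0 as a fall, beside 18.8% and 24.0% of all genes. The tg/tg arrays lay above the WT arrays without overlap for 32 genes and below them for 1, *Psmc1*, beside 40.2% and 47.7% of all genes. For 31 of the 34 genes the difference exceeded the largest gap between replicate arrays of that gene, the exceptions being *Psmc1*, *Psmc3* and *Psmc5*. The share of all genes that do so was not computed, so this count has no background beside it. The calls of *Psmc4*, *Psmd2*, *Psmd4* and *Psmd7* ended when either WT array was left out, which left 26 genes higher. The part of the cell types whose markers moved (T cells, monocytes and macrophages, proliferating cells, endothelium, airway, heart muscle, fat) in these differences was not tested.

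**Figure D1:**
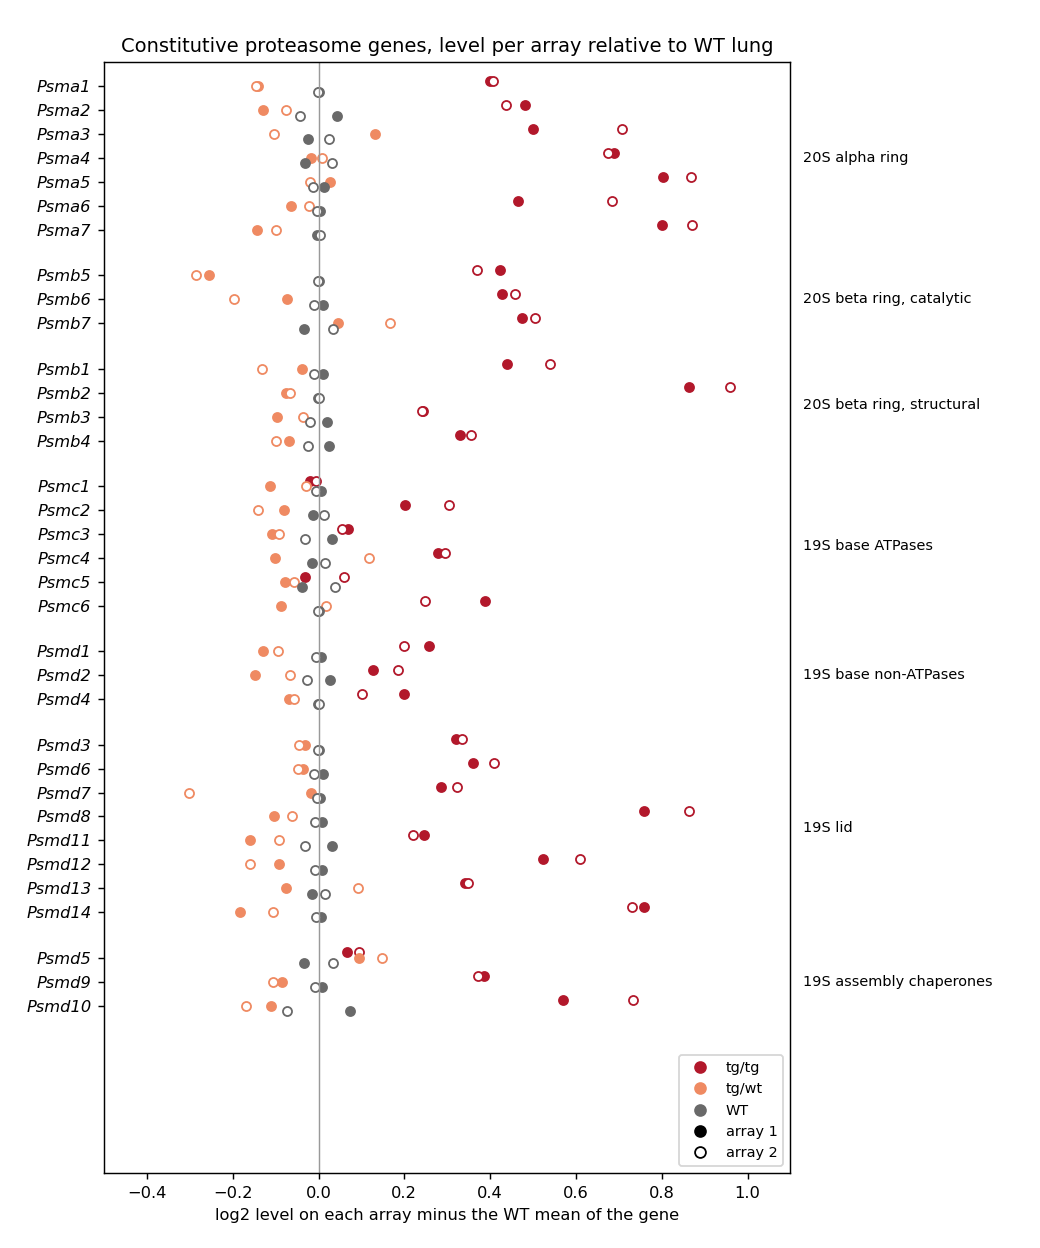
Level of each of the 34 tested genes on every array, on the x axis as the log2 level minus the gene's WT mean, with genes grouped by role down the y axis. Red points are tg/tg arrays, orange points tg/wt arrays and grey points WT arrays, filled for array 1 and open for array 2. The red points lie to the right of the grey ones for 32 genes, and the 3 catalytic genes differ from WT by 0.40 to 0.49.

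RefSeq promoter windows (assembly GRCm38.p6, 250 bases before to 50 bases after the gene's start) were found for 29 of the 36 genes. *Psma8*, *Psmb1*, *Psmb2*, *Psmb7*, *Psmc3*, *Psmd3* and *Psmd7* had no window and were not searched. The 29 include *Psmb11*, which was below detection and holds CCAAT. The windows were searched on both strands for TGACNNNGC, the core of the antioxidant response element, and for CCAAT, the box bound by NF-Y. At least one match to TGACNNNGC was present in 5 of the 29 genes (17.2%), beside 14.0% of 27025 genes with such windows, and CCAAT was present in 12 of the 29 (41.4%), beside 41.1%. No match to the one overlapped a match to the other in these windows. The TGACNNNGC matches were in *Psmb5*, *Psmb6*, *Psmd9*, *Psmc6* and *Psmd12*. By their brightest probes all were higher in tg/tg than in WT, as were 30 of the 34 tested members. Other probes of *Psmd9* and *Psmd12*, given below, did not all pass. Whether the motif goes with the rise was not tested. The matches began 47, 9 and 31 bases before the start in *Psmb5*, *Psmb6* and *Psmd9*, on the gene's strand. In *Psmc6* and *Psmd12* they began 227 and 247 bases before it, on the opposite strand. The windows of 5 genes are shown 5′ to 3′ on the gene's strand: the 3 with a match near the start, *Psma5*, which is among the largest rises and matches neither motif, and *Psmc1*, which did not pass and holds CCAAT only. Capitals mark the motif matches.
Psmb5 (chr14:54617946-54618245, minus strand): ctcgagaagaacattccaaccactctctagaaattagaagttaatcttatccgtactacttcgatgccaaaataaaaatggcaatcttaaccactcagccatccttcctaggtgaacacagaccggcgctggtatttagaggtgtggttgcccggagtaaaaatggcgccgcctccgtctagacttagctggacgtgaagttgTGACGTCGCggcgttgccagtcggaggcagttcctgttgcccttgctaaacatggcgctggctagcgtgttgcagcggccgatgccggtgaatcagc
Psmb6 (chr11:70525107-70525406, plus strand): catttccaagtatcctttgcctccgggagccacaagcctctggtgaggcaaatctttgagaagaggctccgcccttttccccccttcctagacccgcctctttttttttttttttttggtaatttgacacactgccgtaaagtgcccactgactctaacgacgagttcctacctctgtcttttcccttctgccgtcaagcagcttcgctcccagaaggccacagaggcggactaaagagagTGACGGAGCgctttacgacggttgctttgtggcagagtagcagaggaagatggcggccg
Psmd9 (chr5:123227940-123228239, plus strand): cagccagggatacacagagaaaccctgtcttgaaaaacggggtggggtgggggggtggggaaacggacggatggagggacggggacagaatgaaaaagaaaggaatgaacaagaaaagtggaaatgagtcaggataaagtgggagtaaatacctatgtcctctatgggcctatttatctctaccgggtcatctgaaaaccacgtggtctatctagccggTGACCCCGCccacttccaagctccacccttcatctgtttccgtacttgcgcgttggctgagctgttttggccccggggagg
Psma5 (chr3:108256676-108256975, plus strand): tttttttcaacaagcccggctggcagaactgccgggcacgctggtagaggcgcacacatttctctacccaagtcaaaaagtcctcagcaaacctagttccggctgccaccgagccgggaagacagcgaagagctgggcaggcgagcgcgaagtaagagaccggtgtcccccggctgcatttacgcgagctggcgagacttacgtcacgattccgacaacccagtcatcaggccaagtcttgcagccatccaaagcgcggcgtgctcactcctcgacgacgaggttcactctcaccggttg
Psmc1 (chr12:100109952-100110251, plus strand): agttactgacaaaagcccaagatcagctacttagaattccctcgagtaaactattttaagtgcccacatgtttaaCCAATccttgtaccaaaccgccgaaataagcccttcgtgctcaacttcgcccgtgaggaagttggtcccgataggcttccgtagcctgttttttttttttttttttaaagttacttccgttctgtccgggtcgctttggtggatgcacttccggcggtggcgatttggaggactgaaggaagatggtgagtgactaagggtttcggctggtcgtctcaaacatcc

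The alpha ring of the 20S core rose as a whole: all 7 measured alpha genes were higher in tg/tg than in WT, with a median difference of 0.60 and a range of 0.40 to 0.84. *Psma7* had levels of 5.26 and 5.33 in tg/tg and 4.32 and 4.36 in tg/wt, against 4.46 and 4.46 in WT, and rose by 0.84 in tg/tg over WT (SE 0.0404, 1.79-fold, limma adjusted p 4.21e-05). *Psma5*, whose window is printed above, had levels of 5.59 and 5.65 in tg/tg and 4.81 and 4.77 in tg/wt, against 4.80 and 4.77 in WT, a rise of 0.83 in tg/tg (SE 0.0410, 1.78-fold, adjusted p 4.45e-05). In both genes the tg/tg arrays stood clear of the other 4, and for *Psma5* the tg/wt and WT arrays overlapped. *Psma4* had levels of 2.27 and 2.26 in tg/tg and 1.57 and 1.59 in tg/wt, against 1.55 and 1.61 in WT, a rise of 0.68 (SE 0.0376, 1.61-fold, adjusted p 6.64e-05). *Psma3* had 3.26 and 3.47 in tg/tg and 2.89 and 2.66 in tg/wt, against 2.73 and 2.78 in WT, and rose by 0.60 with a wider error (SE 0.107, 1.52-fold, adjusted p 0.00498). The 2 arrays of tg/tg and of tg/wt were spread for this gene, but no tg/tg array fell among the others. *Psma6*, *Psma2* and *Psma1* rose by 0.57, 0.46 and 0.40. *Psma8*, the testis form of an alpha subunit, had no probe matched here.

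The 3 catalytic beta genes rose by similar amounts. *Psmb5*, which encodes the chymotrypsin-like subunit, had levels of 4.00 and 3.94 in tg/tg and 3.32 and 3.29 in tg/wt, against 3.57 and 3.57 in WT, and was higher by 0.40 in tg/tg than in WT (SE 0.0366, 1.32-fold, limma adjusted p 0.000432). *Psmb6*, which encodes the caspase-like subunit, had 4.60 and 4.63 in tg/tg and 4.10 and 3.98 in tg/wt, against 4.19 and 4.16 in WT, a rise of 0.44 (SE 0.0514, 1.36-fold, adjusted p 0.00102). Both genes were highest in tg/tg and lowest in tg/wt, with no overlap between the genotypes. *Psmb7*, which encodes the trypsin-like subunit, had 2.60 and 2.63 in tg/tg and 2.17 and 2.29 in tg/wt, against 2.09 and 2.16 in WT, a rise of 0.49 (SE 0.0551, 1.40-fold, adjusted p 0.000905), with tg/wt between the other genotypes. Their immunoproteasome counterparts *Psmb8*, *Psmb9* and *Psmb10*, which are outside the rule, were higher by 2.49, 2.20 and 1.45 in tg/tg than in WT (5.60-fold, 4.59-fold and 2.74-fold). *Psmb11*, the catalytic subunit of the thymus, was below detection, as stated above.

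The 4 structural beta genes, whose products hold the ring together without cutting, were also all higher in tg/tg, with a median difference of 0.42. *Psmb2* had the largest rise of all members: its levels were 1.15 and 1.25 in tg/tg and 0.21 and 0.22 in tg/wt, against 0.29 and 0.29 in WT, a difference of 0.91 between tg/tg and WT (SE 0.0435, 1.88-fold, limma adjusted p 4.03e-05). *Psmb1*, *Psmb4* and *Psmb3* rose by 0.49, 0.34 and 0.24. Over the whole 20S core, 14 of 14 measured genes were higher in tg/tg, with a median of 0.49.

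By the brightest probes, the base of the 19S particle had the lowest medians of the roles. Of its 6 ATPase genes 3 were higher in tg/tg than in WT, *Psmc6* by 0.32, *Psmc4* by 0.29 and *Psmc2* by 0.25, with a median of 0.16 over the 6. *Psmc1* had levels of 4.03 and 4.05 in tg/tg and 3.94 and 4.02 in tg/wt, against 4.06 and 4.05 in WT, a difference of −0.01 between tg/tg and WT (SE 0.0416, limma adjusted p 0.796). *Psmc5* had 2.50 and 2.59 in tg/tg and 2.46 and 2.48 in tg/wt, against 2.49 and 2.57 in WT, a difference of 0.01 (SE 0.0497, adjusted p 0.811), and *Psmc3* differed by 0.06 (SE 0.0376, adjusted p 0.19). For *Psmc5* the arrays of tg/tg and WT overlapped. The scaffold genes *Psmd1* and *Psmd2* and the ubiquitin receptor gene *Psmd4* rose by 0.23, 0.16 and 0.15. In the base as a whole 6 of 9 genes were higher, with a median of 0.16. Beside these counts, 33.8% of all tested genes were higher. Second probes of *Psmc4*, *Psmd2* and *Psmc5*, given below, had larger differences than the brightest (0.42, 0.42 and 0.18, the last not past the threshold).

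All 8 measured lid genes were higher in tg/tg than in WT, with a median of 0.36. *Psmd8* had levels of 2.57 and 2.68 in tg/tg and 1.71 and 1.75 in tg/wt, against 1.82 and 1.81 in WT, a rise of 0.81 in tg/tg over WT (SE 0.0479, 1.76-fold, limma adjusted p 8.50e-05). *Psmd14*, which encodes the deubiquitinating enzyme of the lid, had 3.74 and 3.71 in tg/tg and 2.80 and 2.87 in tg/wt, against 2.99 and 2.97 in WT, a rise of 0.75 (SE 0.0407, 1.68-fold, adjusted p 6.49e-05). In both genes the order was tg/tg, WT, tg/wt from high to low, with no overlap. *Psmd12* rose by 0.57 (1.48-fold, adjusted p 0.0003), and *Psmd6*, *Psmd13*, *Psmd3*, *Psmd7* and *Psmd11* rose by 0.23 to 0.38.

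The 3 assembly chaperones covered by the rule, which bring the base together and then leave it, did not move alike. *Psmd10*, which encodes gankyrin, had levels of 0.72 and 0.88 in tg/tg and 0.04 and −0.02 in tg/wt, against 0.22 and 0.07 in WT, a rise of 0.65 in tg/tg over WT (SE 0.0797, 1.57-fold, limma adjusted p 0.00124). *Psmd9* had 0.80 and 0.78 in tg/tg and 0.33 and 0.31 in tg/wt, against 0.42 and 0.40 in WT, a rise of 0.38 (SE 0.0321, 1.30-fold, adjusted p 0.000315). *Psmd5* had 1.74 and 1.77 in tg/tg and 1.77 and 1.82 in tg/wt, against 1.64 and 1.71 in WT, and differed by 0.08 between tg/tg and WT (SE 0.0426, adjusted p 0.145). It was the only member with its highest mean in tg/wt.

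**Figure D2:**
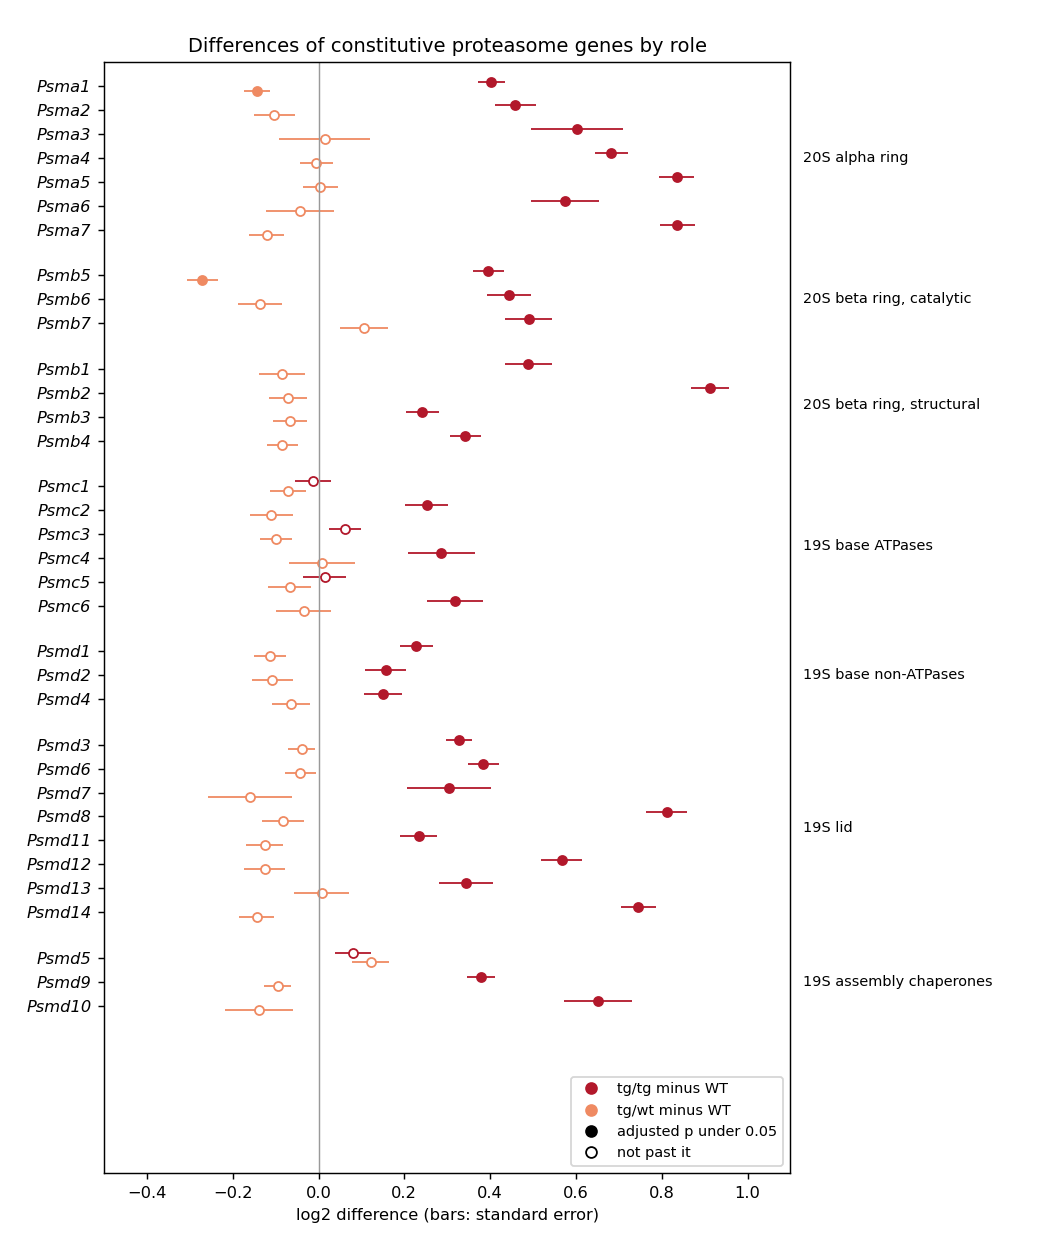
Log2 difference from WT of each of the 34 tested genes on the x axis, with tg/tg minus WT in red and tg/wt minus WT in orange, and genes grouped by role down the y axis. Bars are standard errors of the limma fit, and filled points passed an adjusted p of 0.05, which 30 red points and 2 orange points did; *Psmc1*, *Psmc3*, *Psmc5* and *Psmd5* are the open red points.

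Several genes were measured by more than one probe, and the values above are those of the probe with the highest mean. With every probe fitted on its own, 36 of 44 member probes were higher and 0 lower in tg/tg than in WT. Of all 18212 probes in that fit 72.5% passed in either direction. In tg/wt against WT 0 member probes were higher and 3 lower, beside 23.2% of all probes in either direction. These shares were not split by direction. Among the 3 lower probes was the second probe of *Psmb3*, at −0.18 (limma adjusted p 0.0284 over all probes), where the brightest gave −0.07 (adjusted p 0.289). The probes of *Psmd9* disagreed. Its other probe had levels of −0.39 and −0.31 in tg/tg and −0.23 and −0.19 in tg/wt, against −0.33 and −0.31 in WT. That probe differed by −0.03 between tg/tg and WT (limma adjusted p 0.551 over all probes), and it fell by 0.14 in tg/tg relative to tg/wt (adjusted p 0.0335), where the brightest probe was higher by 0.47 (adjusted p 0.00022). One of the 3 probes of *Psmd12* differed by 0.11 between tg/tg and WT (adjusted p 0.254), while the other two gave 0.57 and 0.60. The second probe of *Psmd7* gave 0.12 (adjusted p 0.323) and that of *Psmc5* 0.18 (adjusted p 0.12). Second probes of *Psma4*, *Psmb3*, *Psmc4*, *Psmd2* and *Psmd14* were higher by 0.64, 0.38, 0.42, 0.42 and 0.80. Which transcripts each probe detects was not analysed here.

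**Figure D3:**
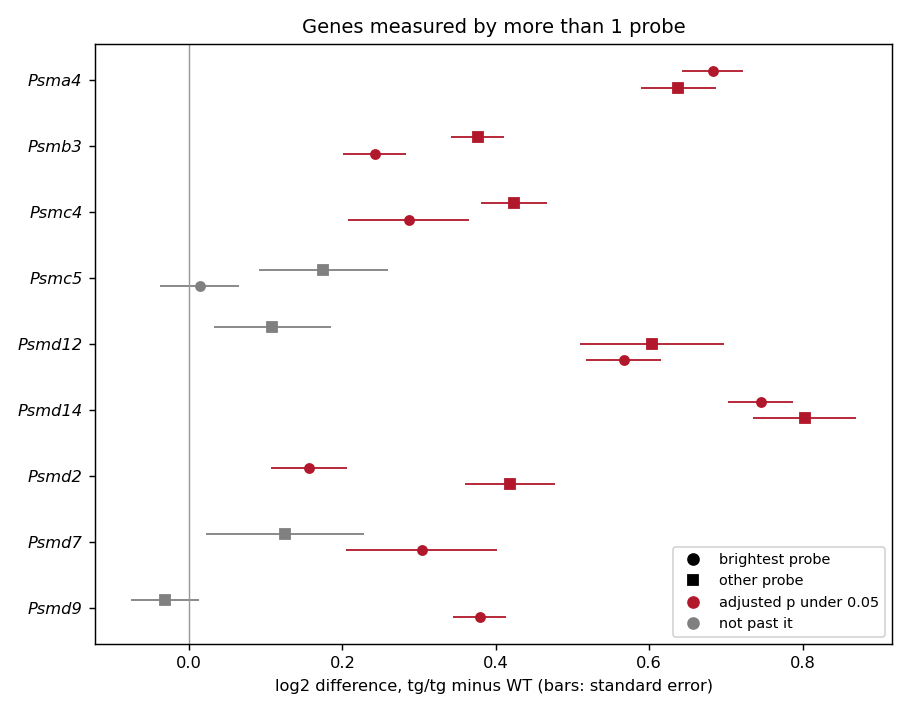
Log2 difference of tg/tg minus WT on the x axis for each probe of the 9 genes with more than one tested probe, with genes down the y axis. Circles are the brightest probe and squares other probes, bars are standard errors, and red marks an adjusted p under 0.05; the square of *Psmd9* lies at −0.03 and its circle at 0.38.

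In tg/wt lungs the constitutive proteasome genes were not higher. Of the 34 genes 0 were higher and 2 were lower in tg/wt than in WT (limma), beside 13.4% of all tested genes higher and 14.6% lower. At an unadjusted p under 0.05 the counts were 1 higher and 10 lower, beside 2648 and 2887 of all 12968 tested genes. *Psmb5*, with its array levels given above, fell by 0.27 in tg/wt (SE 0.0366, adjusted p 0.0094), and *Psma1*, at 3.65 and 3.65 in tg/wt against 3.79 and 3.79 in WT, fell by 0.14 (SE 0.0306, adjusted p 0.0298). Both calls ended when tg/wt array 2, WT array 1 or WT array 2 was left out, which left 0 genes lower, and that of *Psma1* also ended without tg/wt array 1, under quantile normalization, normexp, no filter on dim probes, the series values and the replicate block. The median difference of the members was −0.08, beside −0.00 over all genes. A negative difference was found in 28 of the 34, beside 6630 of the 12968 tested genes. The members' count was 21 under quantile normalization and 22 under normexp background correction, with a median of −0.02 in each. It was 29 with a median of −0.09 when arrays were scaled to the median of clearly detected probes. None of the 34 differed by 0.5 or more (0 higher and 0 lower, beside 4.14% and 3.36% of all genes). In 26 genes both tg/wt arrays lay below both WT arrays and in 2 above them, beside 37.5% and 34.9% of all genes. The lowest mean of the 3 genotypes was in tg/wt for 28 members (82.4%), beside 23.5% of all genes. All tg/wt arrays were on slide 2, so slide and genotype cannot be told apart here. The count of lowest means was not repeated under the alternative settings. A summed level of 7 neutrophil markers was also lowest in tg/wt, with 85.3 to 86.2 in tg/tg, 14.7 to 15.1 in tg/wt and 54.3 to 55.7 in WT. Of these markers 6 of 7 were higher in tg/tg than in WT and 6 of 7 lower in tg/wt, but not the same 6. *Mmp9* differed by −0.17 between tg/tg and WT. *Lcn2* differed by 4.90 between tg/tg and WT and by 0.15 between tg/wt and WT. Its mean level was 4.45 in tg/tg and −0.46 in WT, while *S100a9*, the brightest of these markers, differed by 0.17 between tg/tg and WT. The higher sum in tg/tg than in WT thus rests mostly on *Lcn2*, which was not lower in tg/wt. The sum is carried by the brightest probes, and the part of these markers in the proteasome values was not tested.

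Set against tg/wt, tg/tg lungs had 31 of the 34 genes higher and 0 lower (limma, adjusted p between 2.98e-05 and 0.0249), beside 34.0% of all tested genes higher and 40.2% lower. At an unadjusted p under 0.05 the counts were also 31 and 0, beside 4514 and 5361 of all 12968 tested genes. This comparison shares the tg/tg arrays with the comparison of tg/tg with WT and lies across the slides. The median difference was 0.44 (1.36-fold), and the genes that passed ranged from 0.16 to 0.98. A difference of at least 0.5 was reached by 15 genes as a rise and by 0 as a fall, beside 18.5% and 23.5% of all genes. The tg/tg arrays lay above the tg/wt arrays without overlap for 33 genes and below them for 0, beside 40.1% and 47.4% of all genes. *Psmb2* was higher by 0.98 (1.98-fold, adjusted p 3.43e-05) and *Psma7* by 0.96 (1.94-fold, adjusted p 2.98e-05), and the lid genes *Psmd8* and *Psmd14* were each higher by 0.89. By role the medians were 0.62 in the alpha ring, 0.58 in the catalytic and 0.50 in the structural beta genes, 0.22 in the ATPases, 0.26 in the other base genes, 0.44 in the lid and 0.47 in the chaperones. *Psmc1*, *Psmc5* and *Psmd5* did not pass, and *Psmc3*, which had not passed against WT, was higher by 0.16 (adjusted p 0.0133). That call ended under quantile normalization, normexp or without tg/wt array 1.

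**Figure D4:**
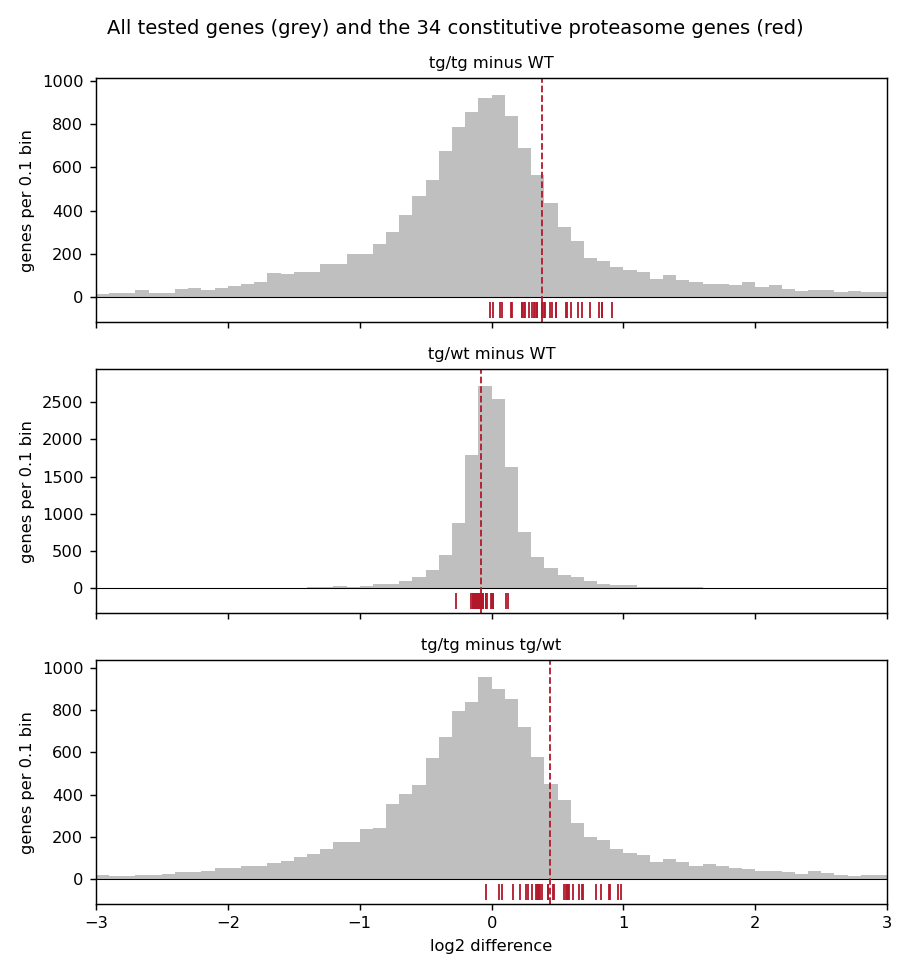
Histograms of the log2 difference of all 12968 tested genes (x axis, bins of 0.1, range −3 to 3; y axis, genes per bin) for tg/tg minus WT, tg/wt minus WT and tg/tg minus tg/wt from top to bottom. Red ticks are the 34 constitutive proteasome genes and the dashed line is their median, at 0.38, −0.08 and 0.44.

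Other proteasome genes, taken from lists of activators, assembly factors, partners, regulators and ubiquitin genes, moved in both directions in tg/tg against WT. Over all tested genes 33.8% were higher and 40.8% lower in this comparison, so calls in both directions were common. Among activators and the inhibitor, 3 of 4 measured genes were higher and 0 lower: *Psme1*, a subunit of the interferon-induced 11S activator, rose by 1.09 (2.13-fold, limma adjusted p 1.55e-05), *Psme4* by 0.55 and *Psme3* by 0.28, while the inhibitor gene *Psmf1* differed by 0.07 (adjusted p 0.864). Of 6 assembly factors outside the rule 3 were higher and 1 was lower. *Pomp*, the maturation factor of the core, had levels of 6.66 and 6.60 in tg/tg and 6.07 and 6.12 in tg/wt, against 6.23 and 6.19 in WT, and rose by 0.42 (adjusted p 0.000534); *Ecpas* rose by 0.27 and *Psmg1* by 0.20, and *Psmg2*, the partner of *Psmg1* in alpha ring assembly, fell by 0.31 (adjusted p 0.00178). Of 7 partners of the regulatory particle 4 were higher and 1 was lower. The deubiquitinase genes *Uchl5* and *Usp14* rose by 0.38 and 0.26 and the ubiquitin receptor gene *Adrm1* by 0.28. *Txnl1* rose by 0.24 by its brightest probe but differed by −0.15 with its probes averaged (adjusted p 0.0223 over all genes in that fit), and the ubiquitin ligase gene *Ube3a* fell by 0.41.

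*Nfe2l1*, the regulator named above, was lower in both transgenic genotypes. It had levels of 3.98 and 3.99 in tg/tg and 4.20 and 4.17 in tg/wt, against 4.43 and 4.41 in WT. It fell by 0.43 in tg/tg relative to WT (SE 0.0324, limma adjusted p 0.000203) and fell by 0.23 in tg/wt relative to WT (adjusted p 0.0107), with no overlap between the genotypes. *Ngly1*, the glycanase that processes the Nfe2l1 protein, fell by 0.36 in tg/tg, and *Nfe2l2* differed by −0.01 (adjusted p 0.806). These are transcript levels, and Nfe2l1 is known to be controlled largely after translation. The part of Nfe2l1 in the proteasome gene levels was not tested. Of the 10 measured regulators 6 were higher and 2 lower in tg/tg: *Ufd1*, a cofactor of the Vcp segregase, rose by 0.59 and *Mafg*, a small Maf partner, by 0.36, and *Nploc4*, *Maff*, *Keap1* and *Vcp* by 0.11 to 0.26. Of the 9 ubiquitin and shuttle genes reported here 6 were higher and 2 lower. Beside both lists stand 33.8% of all tested genes higher and 40.8% lower. The interferon-induced ubiquitin-like gene *Ubd* rose by 10.87, the shuttle factor genes *Rad23b* and *Ubqln1* by 0.52 and 0.44, and the ubiquitin-activating gene *Uba1* by 0.43, while *Ubqln2* fell by 0.47. The polyubiquitin gene *Ubb* was higher by 0.17, but turned to differences between −0.03 and −0.05 under quantile normalization and normexp.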

How the data were processed

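Lung RNA of 3 genotypes was measured on 6 arrays. Per the file headers, Agilent Feature Extraction 9.5.3.1 made the deposited intensity values (the submitters' processing notes give version 9.1): processed signals with the background subtracted and spatial trends removed, without scaling across arrays. The values deposited for the whole series equal the background-subtracted intensity and served as an alternative. Control spots and outlier-marked spots (138 to 187 per array) were left out, saturated spots (3 per array) were kept, spots of a probe were averaged, and log2 of the deposited intensity minus each array's 75th percentile was computed. Probes were named only through their accession and the RefSeq genes of assembly GRCm38.p6, where 22951 probes had a symbol and 18223 had none. Probes well above background on at least 2 arrays entered, the brightest probe stood for a gene, and 8 probes with missing spots were dropped. Groups came from the genotype labels. Group means were fitted with limma 3.58.1 (lmFit, eBayes; R 4.3.3, data.table, version 1.17.8) over all 6 arrays, with 3 residual degrees of freedom, a prior of 1.77, and Benjamini-Hochberg adjustment over 12968 genes at a threshold of 0.05; the fit was tested on simulated data. Normexp was run on median signals, since the files used here hold no mean signal. Alternatives were other normalizations and background corrections, filters, probe rules, variance models, the series values, slide and replicate blocks, and leaving out each array. Same-numbered arrays did not deviate together (correlations of −0.048, 0.129 and −0.0458), so the numbers were not taken as pairs. The number of arrays limits the precision.

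Some genes of the ubiquitin list are not reported here. Members and gene lists were chosen with earlier results of these data known. Every member is accounted for; array values are given for the 8 largest rises against WT, the largest changes in the other comparisons, the catalytic and chaperone genes and *Psmd9*, whose probes disagree in direction with both past the threshold, and for *Psmc1*, *Psmc5*, *Pomp* and *Nfe2l1*, which were added after their values were seen. Figures used Python 3.11.15 and matplotlib 3.10.9.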

Additional observations from a re-analysis of the deposited data

How the results depend on the processing

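The differences of 26 of the 30 genes that were higher in tg/tg than in WT passed under every alternative that kept 1 value per gene, apart from the minimum size given below, and those of *Psmc4*, *Psmd2*, *Psmd4* and *Psmd7* failed under some, as did *Psmc3*, *Psmc4*, *Psmd4* and *Psmd7* in tg/tg against tg/wt. Leaving out 1 array at a time gave 26 to 29 genes higher and 0 lower in tg/tg against WT, 0 higher and 0 to 2 lower in tg/wt against WT, and 30 to 31 higher and 0 lower in tg/tg against tg/wt. Requiring a log2 difference of at least 0.5 left 10 genes higher in tg/tg against WT, 15 higher in tg/tg against tg/wt and 0 lower in tg/wt against WT. With every probe on its own, 38 member probes were higher and 1, that of *Psmd9*, was lower in tg/tg than in tg/wt. Of all 18212 probes 71.8% passed there in either direction. The 2 genes lower in tg/wt than in WT became 1, with *Psma1* lost, under quantile normalization, under both normexp corrections, without the filter on dim probes and with the series values, and 6 with an intensity trend in the variance; the cause was not tested. The replicate block left 28 genes higher in tg/tg against WT, 1 lower in tg/wt against WT and 31 higher in tg/tg against tg/wt. The slide as a block amounted to a fit within slide 1, which left 29 genes higher in tg/tg against WT. Naming probes by accession only was the main setting already and was not run separately.

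Some single-gene differences between tg/tg and WT turned sign. *Txnl1* gave −0.15 with probes averaged. *Psmc5* gave −0.0094 with the series values and −0.031 to 0.059 with 1 array left out. *Psmf1* gave −0.23 with probes averaged and −0.026 to 0.163 with 1 array left out, and *Nfe2l2* 0.0017 with the median of clearly detected probes as the scale. Under quantile normalization, normexp and normexp with high local backgrounds reset, *Ubb* gave −0.031, −0.046 and −0.041 and *Rps27a* −0.067, −0.037 and −0.037, with −0.032 to 0.080 for *Rps27a* with 1 array left out. The calls of *Psme3*, *Psme4*, *Psmg1*, *Maff*, *Keap1*, *Vcp*, *Uba6* and *Ubqln4* also failed under at least 1 alternative.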
